A study of Mus musculus with 4 samples.

Results

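The genes described here encode the subunits of heterotrimeric G proteins and the regulators of G protein signalling (RGS proteins). They were chosen by gene symbol and not by their values, although earlier results of these data were known. The choice holds 15 genes of Gα subunits, 5 of Gβ, 12 of Gγ (Gng and Gngt) and 21 named Rgs with a number, or 53 of the 41388 genes in the files. RNA was sequenced from cells with green fluorescence sorted by flow cytometry out of dorsal root ganglia of C57BL/6 mice, taken at spinal levels T11-S1 and labelled postnatal day 2 (P2). Every library carries the genotype label Tg(Ret-EGFP)SJ/, and the design text speaks of heterozygotes with EGFP inserted at the Ret locus, so no library is free of the reporter. There were 1 female library (female A, 40 ganglia) and 3 male libraries (male A, male B and male C, 20 ganglia each), and each came from a single animal. By the pool descriptions, female A and male A (called the P2-mouse pair below) each stem from a P2 mouse. For male B and male C (the embryo pair) the word used is embryo, although their stage label is also P2. The sources used here do not give what else sets the pairs apart, and sex is unevenly spread over them, since the only female is in the P2-mouse pair.

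A G protein-coupled receptor that binds its ligand makes a Gα subunit exchange GDP for GTP, after which Gα and the Gβγ dimer each act on effectors. Gα subunits of the Gs class stimulate adenylyl cyclase, those of the Gi class inhibit it, those of the Gq class activate phospholipase C beta, and G12 and G13 act through RhoGEFs. RGS proteins bind active Gα and speed up the hydrolysis of its GTP, which ends the signal. In sensory neurons these proteins stand behind receptors for opioids, prostaglandins, bradykinin and other ligands that raise or lower excitability.

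The libraries held 17388493 to 28066448 gene counts. Sensory neuron markers summed to 7757 to 8202 CPM (gene counts scaled to a common library total) in the P2-mouse pair and 12328 to 13045 in the embryo pair, with 7 of 10 markers higher in both embryo libraries and 3 lower. Markers of other cells were also present. All 8 Schwann cell markers were higher in both libraries of the P2-mouse pair (sums 4750 to 7602 against 2975 to 2985 CPM), as were all 6 fibroblast markers (1374 to 1515 against 295 to 318) and 5 of 6 endothelial markers (8.86 to 19.9 against 4.18 to 5.29). So were all 3 erythroid markers (31.8 to 42.6 against 3.98 to 12.9). Immune markers summed to 2.49 to 9.78 CPM, with 3 of 7 higher in both P2-mouse libraries and 0 lower in both. Satellite glia markers summed to 383 to 694 CPM, with 3 of 6 higher in both P2-mouse libraries and 2 lower in both. Of these, Cdh19 was at 38.4 and 42.4 CPM in the P2-mouse pair and 5.21 and 5.30 in the embryo pair. Fabp7 went the other way, at 109 and 102 against 204 and 275. Mural cell markers summed to 28.4 to 34.5 CPM, also with 3 of 6 higher and 2 lower. No listed marker was at 0 in all 4 libraries. In such bulk samples, fewer cells of a type and less RNA per cell cannot be told apart, and the part of these other cells in the differences below was not tested.

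One gene led each of the Gβ, Gγ and RGS classes. Levels between genes are given as RPKM, which is CPM per kilobase of exon length. Gnb1 made up 95.6 ± 0.465% of all Gβ RPKM (mean ± SD, n = 4), Rgs4 80.4 ± 1.04% of all RGS RPKM, and Gng3 79.6 ± 9.13% of all Gγ RPKM. The Gα class was more evenly filled, with Gnaq at 30.3 ± 2.67%. Among the 25075 genes with a count in any library, ordered by mean RPKM, Gnb1 stood at place 14, Rgs4 at 31, Gng3 at 39 and Gnaq at 270. Without the division by length, Gnb1 stood at place 3, Rgs4 at 23, Gng3 at 58 and Gnaq at 70, and 27 of the 53 genes changed place within their class.

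**Figure D1:**
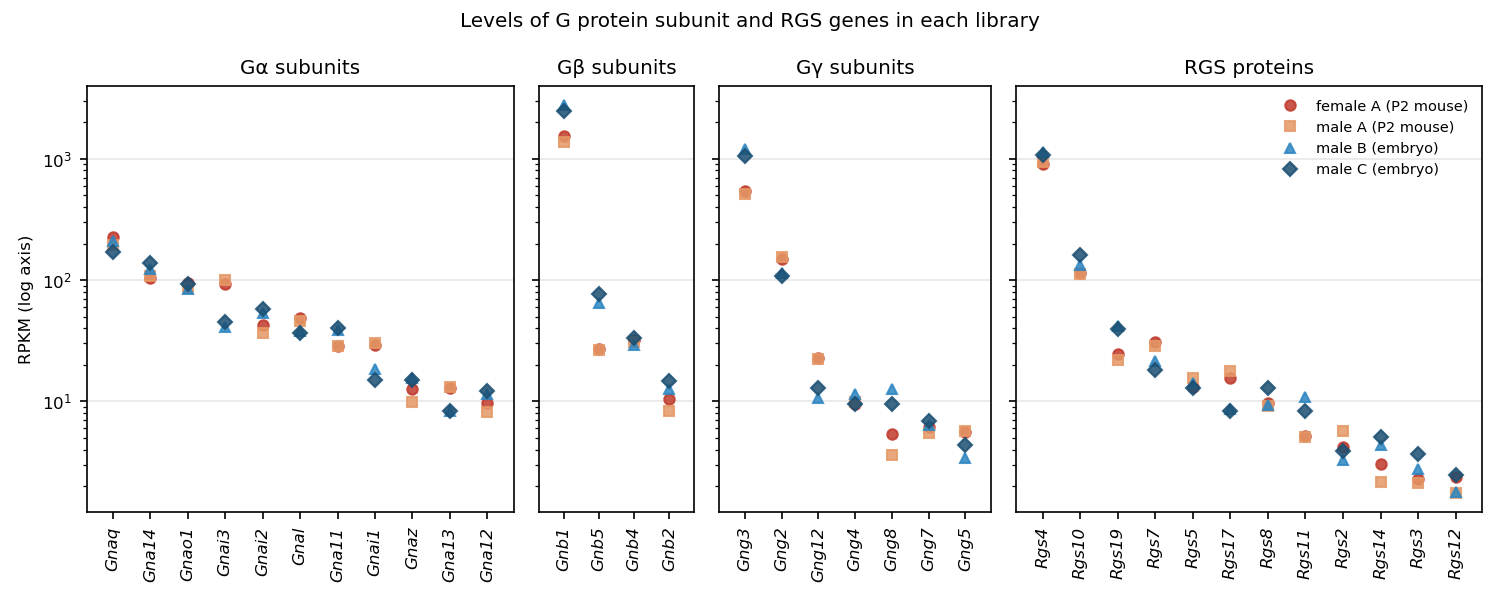
RPKM (log axis) of the members with a mean of at least 5 CPM, 1 panel per class, with 1 point per library (circles female A, squares male A, triangles male B, diamonds male C). Gnb1, Gng3 and Rgs4 lie far above the other members of their classes, and the embryo libraries lie above the P2-mouse libraries for these 3 genes.

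Of the 53 genes, 14 had a mean of at least 100 CPM and 34 of at least 5 CPM. At the other end, 11 had a mean under 1 CPM, and Gngt1, Rgs13, Rgs18 and Rgs21 had no count in any library. A count of 0 allows up to 3 counts, or 0.107 to 0.173 CPM depending on the library. Several of the silent genes lie beside expressed ones. Gnat2, the Gα subunit of cones, lies 5.85 kb from Gnai3 on chromosome 3 and had a mean RPKM of 0.0798, against 69.6 for Gnai3. Gna15, a Gq-class subunit known from blood cells, lies 4.5 kb from Gna11 on chromosome 10 and had 3 counts in female A and none elsewhere. Gnat1, the Gα subunit of rods, lies 39.1 kb from Gnai2 on chromosome 9 and was at 0 to 0.241 CPM. In the same way Gngt1 had no count and lies 6.51 kb from Gng11 on chromosome 6. On chromosome 1, Rgs4 (mean RPKM 1015) and Rgs5 (14.0) lie 45.7 kb apart, while Rgs13, Rgs18 and Rgs21 lie in a run with Rgs1 and Rgs2 in which Rgs2 was the only gene above 1 CPM. The 2 Gα genes with the highest mean RPKM, Gnaq and Gna14, are neighbours too, 48.2 kb apart on chromosome 19.

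The stretch of 250 bases before the transcription start is shown for the leading Gβ gene, the leading RGS gene and the Gα gene with the largest difference between the pairs among those at 5 CPM or more. Sequences are from RefSeq (GRCm38.p6), where 52 start sites were found for 39 of the 53 genes. They lie at chr4:155491111-155491360 (plus strand) for Gnb1, chr1:169747643-169747892 (minus strand) for Rgs4 and chr3:108146153-108146402 (minus strand) for Gnai3, each read 5′ to 3′ in the direction of the gene. Capitals mark the GC box (GGGCGG), the CCAAT box (CCAAT) and the TATA box (TATAAA), searched on both strands with overlaps allowed.
Gnb1: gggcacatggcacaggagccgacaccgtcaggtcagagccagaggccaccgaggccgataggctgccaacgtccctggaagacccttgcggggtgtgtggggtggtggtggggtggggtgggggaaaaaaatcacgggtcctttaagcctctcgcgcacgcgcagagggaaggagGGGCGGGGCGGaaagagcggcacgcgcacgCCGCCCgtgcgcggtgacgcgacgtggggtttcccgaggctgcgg
Rgs4: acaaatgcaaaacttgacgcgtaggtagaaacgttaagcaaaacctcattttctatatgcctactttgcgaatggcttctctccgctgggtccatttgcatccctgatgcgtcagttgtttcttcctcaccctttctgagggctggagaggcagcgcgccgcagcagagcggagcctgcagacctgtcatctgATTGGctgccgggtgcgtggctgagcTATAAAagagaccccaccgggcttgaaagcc
Gnai3: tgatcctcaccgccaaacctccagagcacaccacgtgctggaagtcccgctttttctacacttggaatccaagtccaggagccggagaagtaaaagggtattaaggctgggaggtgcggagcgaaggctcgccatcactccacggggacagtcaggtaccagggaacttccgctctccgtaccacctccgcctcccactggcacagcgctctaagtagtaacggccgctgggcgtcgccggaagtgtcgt
The Gnb1 stretch had 69.2% G and C and 3 GC boxes, 75, 70 and 45 bases before the start. The Rgs4 stretch had 53.6%, with TATAAA 31 bases before the start and CCAAT on the opposite strand 57 bases before it. Gnai3, at 59.6%, held none of these letters. GC boxes were found in 25 of the 52 member windows (48.1%), which belong to 22 genes, against 32.7% of all 32851 windows of the same length. Member windows were also richer in G and C, with a median of 60.6% against 52.4% for all windows. Whether GC boxes were more frequent than in windows of like GC content was not tested. TATAAA was in 17.3% of member windows (9 windows of 6 genes) and 12.4% of all, CCAAT in 25.0% and 33.8%. The full cyclic AMP response element (TGACGTCA) was in none of the member windows and in 1.55% of all. These are matches of letters only, and no measurement of binding was made.

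With 2 libraries on either side, the pairs could be compared with replicates. Of the 53 genes, 44 had enough counts to be tested. With edgeR's quasi-likelihood test and Benjamini-Hochberg adjustment over all 15568 genes tested, 8 members were higher in the P2-mouse pair at an adjusted p under 0.05 (background 22.3% of all genes) and 17 were lower (background 20%). The median log2 fold change (P2-mouse pair over embryo pair) was -0.33 over the members and 0.02 over all genes tested. In CPM, the pairs did not overlap with the P2-mouse pair higher for 12 of the 44 (42.5% of all genes tested) and lower for 22 (30.8%). By class, 4 Gα genes were higher and 5 lower of 12 tested. No Gβ gene was higher and 3 of 5 were lower. In the Gγ class 2 were higher and 2 lower of 9, and in the RGS class 2 were higher and 7 lower of 18.

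**Figure D2:**
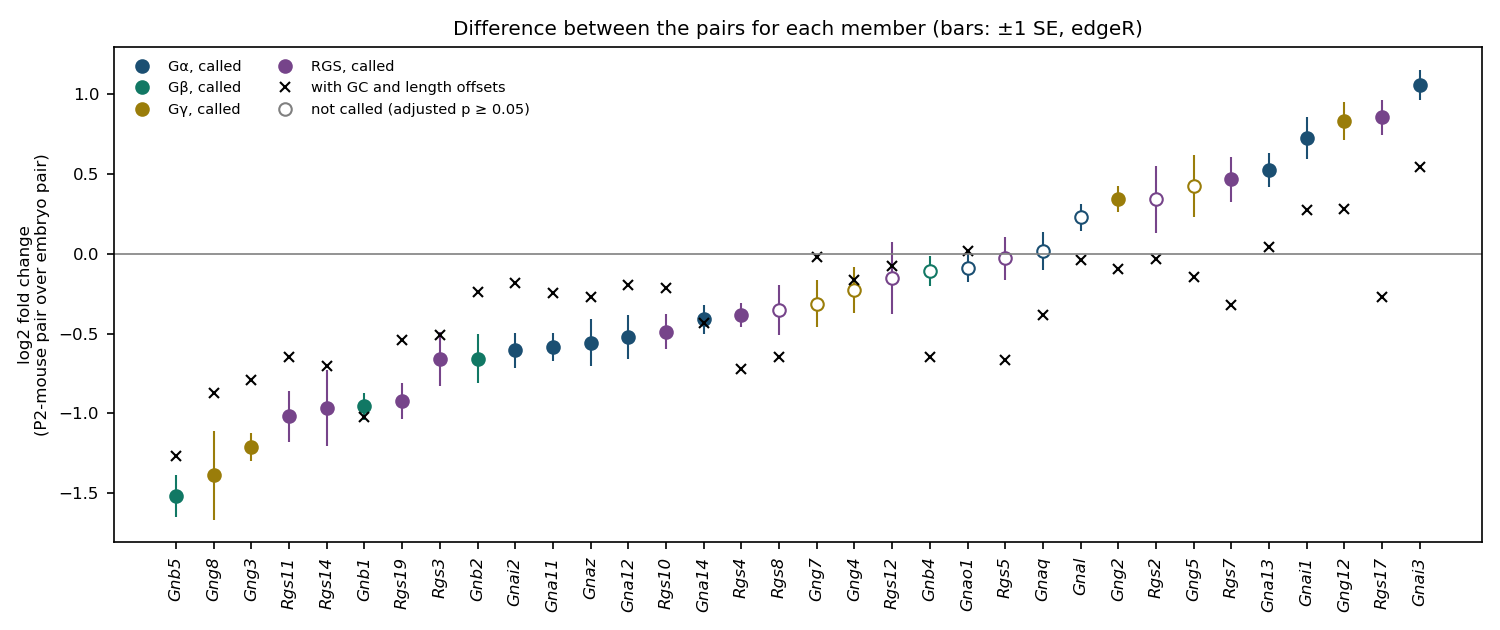
Log2 fold change of the P2-mouse pair over the embryo pair for the 34 members with a mean of at least 5 CPM, with bars of 1 SE (edgeR), filled where the adjusted p was under 0.05. Crosses give the same difference with offsets for GC content and transcript length: Gnb5, Gng3 and Gnb1 stay below -0.75 and Gnai3 above 0.5, while Rgs17, Rgs7 and Gng2 cross 0.

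Among the Gα genes as counted, those of the Gq class led in level. Gnaq (chr19:16132831-16387463), the class's founding member, was at 1395 CPM in female A and 1198 in male A, with 1306 in male B and 1056 in male C. The pairs overlapped, and the log2 fold change was 0.02 ± 0.119 SE (edgeR adjusted p = 0.908). Its neighbour Gna14 (chr19:16435667-16610818) was at 352, 366, 418 and 465 CPM in the same order of libraries, which is used from here on. Both embryo libraries were above both P2-mouse libraries, and Gna14 was lower in the P2-mouse pair by -0.41 ± 0.0908 SE (edgeR adjusted p = 0.00871). Gna11 (chr10:81528724-81545190) showed the same order at 118, 117, 160 and 166 CPM (log2 fold change -0.58 ± 0.0891 SE, edgeR adjusted p = 0.00166). The 4 genes of the Gq class held 51.0% and 49.9% of all Gα RPKM in female A and male A, and 58.0% and 55.1% in male B and male C.

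The genes of the Gi/o class differed in opposite directions. Gnao1 (chr8:93809966-93969388), the Go subunit and the third most abundant Gα gene, was at 643, 587, 574 and 633 CPM, with overlapping pairs and a log2 fold change of -0.09 ± 0.0895 SE (edgeR adjusted p = 0.471). Gnai3 (chr3:108107280-108146146) was at 304, 325, 133 and 147 CPM. Of the called Gα genes above 5 CPM it had the largest difference, 2.25 times as high in mean CPM in the P2-mouse pair, and the pairs did not overlap (log2 fold change 1.06 ± 0.0968 SE, edgeR adjusted p = 0.000246). Gnai1 (chr5:18265135-18360413) was likewise higher there, at 93.2, 97.4, 58.8 and 47.8 CPM (0.72 ± 0.130 SE, edgeR adjusted p = 0.0035). Gnai2 (chr9:107614138-107635342), the third gene of this trio of adenylyl cyclase inhibitors, went the other way at 92.1, 79.9, 116 and 126 CPM (-0.60 ± 0.109 SE, edgeR adjusted p = 0.00359). So did Gnaz (chr10:74967177-75016907), whose product resists pertussis toxin, at 46.1, 35.5, 56.3 and 54.6 CPM (-0.56 ± 0.148 SE, edgeR adjusted p = 0.0188). In RPKM the order of the 3 inhibitory genes thus differed between the pairs: Gnai3 was above Gnai2 in both P2-mouse libraries and below it in both embryo libraries. In CPM Gnai3 was above Gnai2 in every library. The order was not itself tested. With offsets for GC content and transcript length Gnai3 was still called higher, while Gnai1 (0.27), Gnai2 (-0.18) and Gnaz (-0.27) were not called.

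Of the pair that couples to RhoGEFs, Gna13 (chr11:109362831-109401369) was at 82.1, 84.8, 53.5 and 53.8 CPM and was higher in the P2-mouse pair (log2 fold change 0.52 ± 0.107 SE, edgeR adjusted p = 0.0061). Gna12 (chr5:140758408-140830431) was at 33.4, 28.1, 39.6 and 41.9 CPM and was lower there (-0.52 ± 0.138 SE, edgeR adjusted p = 0.019). Neither had overlapping pairs, and 13.3% of the exon bases of Gna12 are shared with Amz1 on the other strand. Neither was called with those offsets (Gna13 0.04, Gna12 -0.20). As counted, the stimulatory class was almost wholly Gnal, the Golf subunit, at 280, 266, 219 and 212 CPM. Gnal was not called (0.23 ± 0.0843 SE, edgeR adjusted p = 0.0608). Gnas, the Gs subunit, had only 91, 79, 36 and 43 counts (4.54 CPM at most), with both P2-mouse libraries above both embryo libraries (1.11 ± 0.351 SE, edgeR adjusted p = 0.0371). Other genes overlap 22.0% of the exon bases of Gnas, and the sources used here do not tell how reads in those bases were counted. The level of Gnas is therefore uncertain, and so are the shares and ranks of Gα genes that depend on it. Gna15, Gnat1 and Gnat2 were at 0.463 CPM or less in every library and were not tested.

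**Figure D3:**
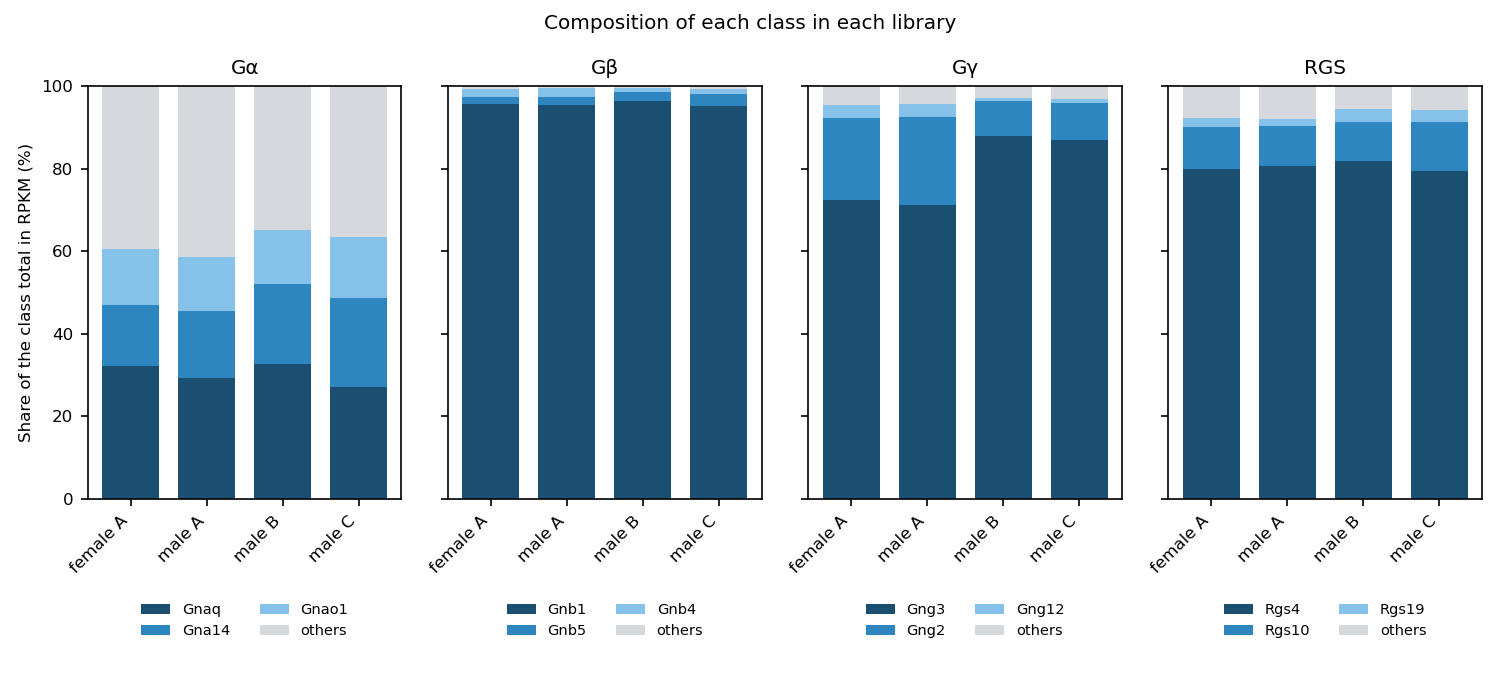
Share of each class total in RPKM (%) held by its 3 leading members and by all others, 1 bar per library. Gnb1 holds over 95% of Gβ in every library, and Gng3 goes from 71.1 to 72.3% of Gγ in the P2-mouse pair to 87.0 to 88.0% in the embryo pair.

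Gβ subunits were lower in the P2-mouse pair wherever they were called. Gnb1 (chr4:155491361-155559269), the main Gβ subunit of most tissues, was at 6629, 5865, 11744 and 10646 CPM, so that both embryo libraries were far above both P2-mouse libraries (log2 fold change -0.96 ± 0.0869 SE, edgeR adjusted p = 0.000246). Gnb5 (chr9:75311395-75344964) encodes the divergent Gβ that pairs with RGS proteins of the R7 class in place of a Gγ. It was at 32.4, 31.2, 76.4 and 91.8 CPM, a mean 2.64 times as high in the embryo pair (-1.52 ± 0.132 SE, edgeR adjusted p = 0.000218). Gnb2 (chr5:137528127-137533510) was at 35.8, 28.5, 43.3 and 50.5 CPM and was lower in the P2-mouse pair with no overlap (-0.66 ± 0.155 SE, edgeR adjusted p = 0.0116). Gnb4 (chr3:32580332-32616585) was at 408, 391, 372 and 424 CPM with overlapping pairs and was not called (-0.11 ± 0.0937 SE, edgeR adjusted p = 0.382). Gnb3, the Gβ of cones, was at 0.460 to 2.73 CPM and was not called either. By mean RPKM the order was Gnb1 (2043 ± 681 SD), Gnb5 (48.8 ± 26.0), Gnb4 (31.4 ± 1.78), Gnb2 (11.6 ± 2.78) and Gnb3 (0.519 ± 0.369). In RPKM Gnb5 was above Gnb4 in the embryo libraries and below it in the P2-mouse libraries. That order rests on exon lengths of 1188 bases for Gnb5 and 12678 for Gnb4, and in CPM Gnb4 was above Gnb5 in every library.

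In the Gγ class the most abundant gene was lower in the P2-mouse pair and the next 2 were higher, but only the first of these calls held with offsets for GC content and transcript length, where Gng2 stood at -0.09 and Gng12 at 0.28. Gng3 (chr19:8836929-8839246), a Gγ found chiefly in neurons, was at 917, 873, 2024 and 1805 CPM, with no overlap (log2 fold change -1.21 ± 0.0867 SE, edgeR adjusted p = 0.000141). Gng2 (chr14:19872559-19977627), a widely expressed partner of Gnb1, was at 656, 681, 499 and 476 CPM (0.34 ± 0.0816 SE, edgeR adjusted p = 0.0121). Gng12 (chr6:66896397-67021350) was at 108, 105, 50.4 and 60.3 CPM (0.83 ± 0.121 SE, edgeR adjusted p = 0.00135). For both, each P2-mouse library was above each embryo library. Gng8 (chr7:16891786-16895435), known from olfactory and vomeronasal neurons, was at 4.99, 3.34, 11.6 and 8.79 CPM and was lower in the P2-mouse pair (-1.39 ± 0.277 SE, edgeR adjusted p = 0.00554). Gng4, Gng5, Gng7, Gng10 and Gng11 were tested and not called, with means of 2.33 to 32.7 CPM. Gng13, Gngt1 and Gngt2 were at 0.499 CPM or less and were not tested. Opposite-strand exons of Bscl2 cover 23.4% of the exon bases of Gng3, and 18.9% of the 50-base words of Gng2 also occur in other genes, most often in Gm48283. For Gng10, exons of Gm20503 on the same strand cover 72.0%, so its values are uncertain. The sources used here do not give the strand setting of the counting.

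RGS proteins of the R4 class are small and act on Gi and Gq subunits. Rgs4 (chr1:169741477-169747642) was at 2812, 2885, 3551 and 3326 CPM. The P2-mouse libraries were both lower (log2 fold change -0.39 ± 0.0760 SE, edgeR adjusted p = 0.00524). Rgs3 (chr4:62559847-62704001) was at 25.0, 22.8, 30.1 and 39.5 CPM, again lower in the P2-mouse pair (-0.66 ± 0.168 SE, edgeR adjusted p = 0.016). Rgs5, Rgs8, Rgs2 and Rgs16, with means of 3.07 to 99.3 CPM, were not called, and Rgs1 had at most 11 counts. Rgs5 is best known from the mural cells of vessels. Here it was at 58.4 to 71.4 CPM. The 6 mural markers together gave 28.4 to 34.5 CPM, of which Pdgfrb gave 22.5 to 29.1. Which cells the Rgs5 reads came from was not tested. As a class, R4 held 82.0 to 84.0% of all RGS RPKM in the 4 libraries.

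In the R12 class, Rgs10 (chr7:128373621-128418758), a small RGS also known from microglia, was second among the RGS genes in RPKM. It was at 197, 192, 228 and 274 CPM and was lower in the P2-mouse pair (log2 fold change -0.49 ± 0.108 SE, edgeR adjusted p = 0.00876). Immune markers together gave under 10 CPM in every library, and which cells the Rgs10 reads came from was not tested. Rgs14 (chr13:55369732-55384687), a scaffold that also binds Ras proteins, was at 7.66, 5.35, 10.98 and 12.6 CPM (-0.96 ± 0.238 SE, edgeR adjusted p = 0.0138). Rgs12 was at 14.0 to 19.6 CPM and was not called. In the RZ class, Rgs19 (chr2:181688419-181693977), also called GAIP, was at 54.3, 48.8, 93.3 and 87.3 CPM (-0.92 ± 0.113 SE, edgeR adjusted p = 0.000645). Rgs17 (chr10:5825663-5922400), which acts on Gz and has been tied to opioid receptors, was at 130, 148, 72.4 and 69.8 CPM (0.86 ± 0.110 SE, edgeR adjusted p = 0.000796). The pairs overlapped for neither. The opposite directions of Rgs19 and Rgs17 did not hold with offsets for GC content and transcript length, where Rgs17 was not called and stood at -0.27 and Rgs19 at -0.54. Rgs20 was at 2.10 to 2.91 CPM and was not called.

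The R7 class is the one that needs Gnb5 for stability. Rgs7 (chr1:175059736-175491130) was at 43.6, 40.7, 30.8 and 25.7 CPM and was higher in the P2-mouse pair (log2 fold change 0.47 ± 0.142 SE, edgeR adjusted p = 0.0321), but with the offsets it stood at -0.32 and was not called. Rgs11 (chr17:26202951-26211324) was at 21.8, 21.2, 45.4 and 35.2 CPM and was lower (-1.02 ± 0.161 SE, edgeR adjusted p = 0.00194), as Gnb5 was. Rgs9 was at 2.71 to 4.28 CPM and was not called. Rgs6 had 8, 2, 50 and 15 counts and was called lower (-2.80 ± 0.820 SE, edgeR adjusted p = 0.0275), with male B apart from the other 3 libraries. Rgs7bp, which tethers R7 proteins to the membrane, was at 395, 393, 269 and 240 CPM (0.52 ± 0.0910 SE, edgeR adjusted p = 0.00322). Rgs22, which belongs to none of these classes, was at 0.176 to 2.07 CPM and was not called.

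The fold changes went with base composition. Across the 44 tested members, Spearman's rho between the log2 fold change and the GC content of the longest transcript was -0.54 (Pearson's r -0.48), a description over genes measured in the same 4 libraries. Over 15474 genes it was -0.44. Called-higher members had 36.7 to 57.8% GC with a median of 42.7%, and called-lower members 44.0 to 59.9% with a median of 53.8%. With offsets for GC content and transcript length in each library, 2 members were called higher (background 12.8%) and 15 lower (background 20.3%). Of the first 25 calls, 13 were kept with their direction: Gnai3 and Gnas higher, and Gnb1, Gnb5, Gng3, Gng8, Gna14, Rgs3, Rgs4, Rgs6, Rgs11, Rgs14 and Rgs19 lower. Calls were lost for Gnai1, Gna13, Gng2, Gng12, Rgs7 and Rgs17 among the higher and for Gnai2, Gna11, Gna12, Gnaz, Gnb2 and Rgs10 among the lower. The log2 fold change of Rgs17 turned to -0.27, that of Rgs7 to -0.32 and that of Gng2 to -0.09. Gnaq (-0.38), Gnb4 (-0.65), Rgs5 (-0.66) and Rgs8 (-0.64) were called lower with the offsets only. Gnb1 was at -1.02, Gnb5 at -1.27, Gng3 at -0.79, Rgs4 at -0.72 and Gnai3 at 0.54.

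**Figure D4:**
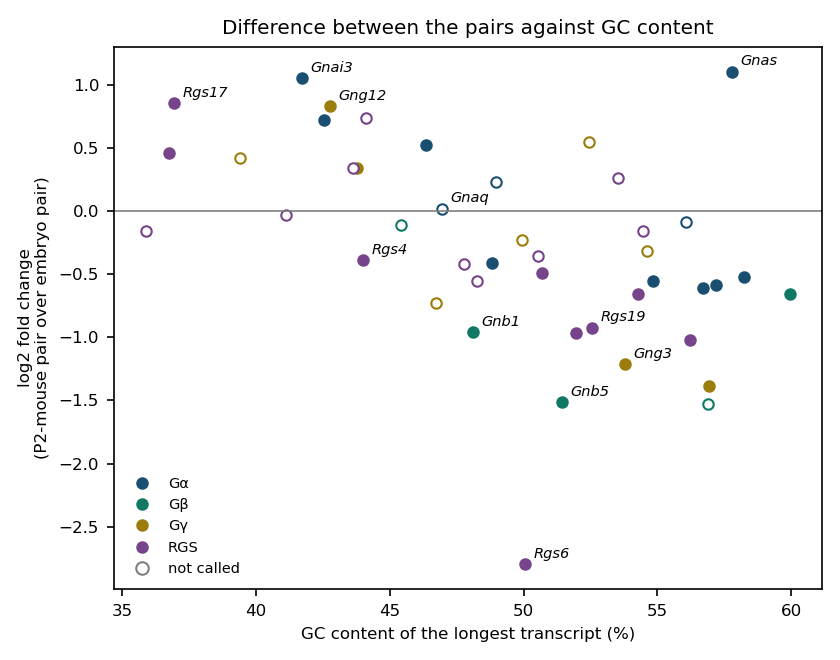
Log2 fold change of the P2-mouse pair over the embryo pair against the GC content of the longest transcript (%), 1 point per tested member (n = 44), filled where called and coloured by class. Members of lower GC content tend to lie above 0 and those of higher GC content below it, with Gnas as the called-higher gene of highest GC content (57.8%).

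Gnai3, Gnb1, Gnb5 and Gng3 were called in the same direction in each of 13 fits, which changed the scaling, the filter, the tool, the composition offsets, the sex term and the libraries one choice at a time or with sex and offsets together. Calls depended on single libraries. Without male A, 4 members were higher (background 11.8%) and 8 lower (background 10.3%), and 13 calls were lost: Gnas, Gna12, Gna13, Gna14, Gnaz, Gnb2, Gng2, Gng8, Rgs3, Rgs6, Rgs7, Rgs10 and Rgs14. Without female A, 5 were higher (background 13.6%) and 12 lower (background 11.3%). The 8 calls lost there were Gnas, Gna12, Gna14, Gng2, Rgs3, Rgs6, Rgs7 and Rgs10. Without male B, 7 were higher (background 21.4%) and 18 lower (background 20%), and without male C, 9 (background 22.1%) and 18 (background 20.1%). Gnas lost its call in both of these, Rgs6 in the first and Rgs7 in the second. With sex as a term, 5 were higher (background 13.3%) and 11 lower (background 10.4%). The calls lost with that term were those of Gnas, Gna12, Gna14, Gng2, Rgs3, Rgs4 (log2 fold change -0.36), Rgs6, Rgs7 and Rgs10. With that term and the offsets together, 1 was higher (background 5.01%) and 5 lower (background 7.71%).

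Libraries of the same pair lay close together. Over the 34 members with a mean of at least 5 CPM, the median size of the log2 ratio was 0.0972 between female A and male A, 0.178 between male C and male B, and 0.480 between the means of the pairs. The ratio of female A to male A ran from -0.44 for Rgs2 to 0.58 for Gng8 on the log2 scale.

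The study's title sets males against females, and female A was set against all 3 male libraries on the assumption that it varies like them. No member of 46 tested was called (background 0%), and none had an unadjusted p under 0.05 with edgeR, DESeq2 or limma-voom. The smallest edgeR adjusted p among the members was 0.951. The log2 fold change (female over males) was -0.31 ± 0.298 SE for Rgs4, -0.61 ± 0.473 for Gnb1, -0.88 ± 0.558 for Gng3, 0.53 ± 0.517 for Gnai3 and 0.14 ± 0.287 for Gnaq. The male spread behind these errors holds the gap between male A and the embryo pair. With the pool description as a term, Gnb1 was at 0.16 and Gng3 at 0.05, and again no member was called. Female A lay inside the range of the 3 males for 26 of the 34 members at 5 CPM or more. That range takes in both pairs, since male A is in the P2-mouse pair. The share over all genes was not computed, so this count says nothing particular about the members. Without male A the test sets female A against the embryo pair alone, and there 4 members were higher (background 11.8%) and 8 lower (background 10.3%).

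The lists of other genes of the pathway held 46 genes, of which 38 were tested between the pairs, 6 were higher in the P2-mouse pair (background 22.3%) and 9 lower (background 20%). Both counts lie near the background, so the values below describe single genes and not the pathway. Among adenylyl cyclases, which make cyclic AMP, 0 of 8 tested were higher and 2 lower: Adcy2 (5.77, 6.21, 8.69 and 10.0 CPM, log2 fold change -0.76) and Adcy5 (27.4, 26.2, 39.0 and 46.5 CPM, -0.79). Phospholipase C beta genes are effectors of Gq. Plcb1 (33.6, 29.6, 18.2 and 13.9 CPM, 0.86) was higher and Plcb3 (46.2, 45.8, 58.9 and 60.5 CPM, -0.49) lower, and Plcb2 was called higher on 18 and 10 counts against 0 and 0. With offsets for GC content and length the calls of Plcb1 (0.19) and Plcb3 (-0.28) were lost, and with sex as a term no gene of this list was called. Among the RhoGEFs that carry an RGS domain, 1 of 3 was higher: Arhgef12, at 101, 99.5, 56.0 and 47.1 CPM (0.85). Gna13 was higher in the same libraries but lost its call with the offsets, and Gna12 was lower (-0.52). A link between these genes was not tested.

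Receptor kinases and arrestins, which switch receptors off, had 0 higher and 2 lower of 7 tested: Grk2 (64.1, 55.7, 94.8 and 104 CPM, log2 fold change -0.84) and Grk6 (16.7, 12.8, 23.3 and 18.5 CPM, -0.61). The most abundant of that list, Arrb1, was at 97.3, 92.6, 90.3 and 111 CPM and was not called. Of the 3 tested partners of R7 proteins, Rgs7bp was higher and Gpr179 lower (2.96, 2.30, 5.21 and 4.26 CPM, -0.95). With the composition offsets Rgs7bp was called lower, at -0.28. Among chaperones and modulators of G protein subunits, 1 of 6 was lower: Ric8a, a chaperone of newly made Gα subunits, at 109, 90.7, 145 and 152 CPM (-0.68). Pdcl, which helps assemble Gβγ dimers, was at 147, 164, 158 and 135 CPM and was not called. Of the GIRK channel genes, targets of Gβγ, only Kcnj3 was tested, at 27.4, 28.2, 23.2 and 21.2 CPM, and it was not called.

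Subunits of protein kinase A, the main target of cyclic AMP, had 2 higher and 2 lower of 6. Prkacb (680, 675, 475 and 492 CPM, log2 fold change 0.37) and Prkar2a (87.6, 82.0, 65.2 and 58.8 CPM, 0.34) were higher. Prkaca (61.7, 49.9, 93.8 and 101 CPM, -0.92) and Prkar1b (275, 253, 506 and 569 CPM, -1.14) were lower. With the composition offsets the calls of Prkacb (-0.0056) and Prkar2a (0.10) were lost, and with sex as a term they were lost too, which leaves Prkaca and Prkar1b, both lower. The most abundant subunit, Prkar1a, was at 1237, 1275, 1061 and 1332 CPM with overlapping pairs and was not called. With the composition offsets, 2 genes of all these lists were higher (background 12.8%) and 10 lower (background 20.3%). Plcb1, Plcb3, Prkacb, Prkar2a and Grk6 lost their calls there, Rgs7bp turned, and Adcy1 and Gpr158 were called lower only there. With sex as a term 2 were higher (background 13.3%) and 5 lower (background 10.4%), and Plcb1, Plcb2, Plcb3, Prkacb, Prkar2a, Gpr179, Grk6 and Adcy2 lost their calls.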

How the data were processed

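The authors' deposited counts come from featureCounts 1.4.5 (Subread), with the build GRCm38.p2, per the submitters' processing notes. Aligner, annotation release and strand setting: not given in the sources used here. CPM and RPKM values that the authors deposited, as the file headers name them, were recomputed from the counts and matched: CPM divides by the total of gene counts, RPKM also by exon length in kilobases. Symbols came from GENCODE M21 for 40254 of 41388 genes (97.3%), coordinates from its GRCm38 models.

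Pairs, and female against males, were tested with edgeR 4.0.16 (R 4.3.3; TMM, filterByExpr with a minimum count of 10 and total of 15, 2 residual degrees of freedom) and Benjamini-Hochberg adjustment over all genes at 0.05. On simulated counts, the test of the pairs recovered 14% of 1.5-fold and 62% of 2-fold changes, in genes at 5 CPM or more. That of female against males recovered 10% and 70%, but with the spread between replicates taken from the fit of the pairs. That spread was smaller (coefficient of variation 0.157 against 0.359), so the simulation does not check the sex test at its own spread. Alternatives were no filter, a minimum mean of 5 CPM, scaling by relative log expression, DESeq2 1.42.0, limma-voom (limma 3.58.1), sex or pool description as a term, each library left out, and offsets for GC content and length per library (mgcv 1.9.3). Those offsets together with the term were added after seeing the data. Members and lists were chosen with earlier results of these data known. Values in every library are given for the 3 members of each class with the highest mean RPKM and for called members with a mean of at least 5 CPM, 26 in all. Gnal, Gnas, Rgs6 and some lower members lie outside this rule and were named after their values were seen. The library kit carries no molecular identifiers named in the labels, so floors cover counting error only. The p-values measure the spread between these 4 libraries.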

Additional observations from a re-analysis of the deposited data

How the results depend on the processing

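No paired analysis was possible because the labels give no pairing of libraries between the groups. In the comparison of the pairs, the 8 members higher became 5 with sex as a term, 2 with GC and length offsets, 1 with both, and 4 to 9 with a library left out. The 17 lower became 11 with sex as a term, 5 with both, and 8 to 18 with a library left out. Fits with sex as a term and fits with a library left out keep fewer residual degrees of freedom. With GC and length offsets alone, 15 were lower. The share of all genes called higher also fell, from 22.3% without the offsets to 12.8% with them. The share called lower was 20% without and 20.3% with them. With sex as a term, alone or with the offsets, both shares fell too, as given above. The drops in the counts were therefore not confined to the members. What caused the changes in the counts was not tested. The log2 fold change of Gnaq turned to -0.083 with sex as a term, -0.38 with offsets and -0.49 with both, and ran from -0.17 to 0.17 with a library left out. With offsets, and with offsets and sex, Gnao1 was at 0.019 and 0.016, Gng2 at -0.092 and -0.081, Rgs7 at -0.32 and -0.46, and Rgs17 at -0.27 and -0.22. In female against males, Gnaq was at -0.14 with offsets. With the pool description as a term, alone and with offsets, Gnb1 was at 0.16 and 0.17 and Gng3 at 0.051 and 0.039. The members called ran from 0 to 4 higher and from 0 to 8 lower with a male left out, and those above 0 came without male A. In CPM in place of RPKM, the leading shares were 38.7% for Gnaq, 94.3% for Gnb1, 63.2% for Gng3 and 81.5% for Rgs4. Relative log expression size factors changed no call among the members. Members at a few counts, such as Rgs6, are limited by depth. The level of Gnas is uncertain, since how reads in its overlapped exon bases were counted is not given.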
